A study of Mus musculus with 4 samples.

Results

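Complement genes were followed across the cell types of the mouse lung, namely C1qa, C1qb, C1qc, C1ra, C1s1, C3, C4b, C7 and Hc, the last being the mouse name of the gene for complement C5. They were taken by symbol from the gene table and make up 9 of its 27998 gene rows. The material was whole lung of wild-type C57BL/6 mice, all labelled male, aged 10 days (NB), 2 months (2 M), 10 months (10 M) and 18 months (18 M). Lungs were dissociated with collagenase D and DNase1, depleted of dead cells and sequenced as 10x Genomics 3′ single-cell libraries, with 1 library per age. The number of mice behind a library was not given in the sources used here, no age had a replicate, and no p-value is given. All intervals are 95% intervals that cover counting error only, exact Poisson for levels, Clopper-Pearson for shares and conditional binomial for ratios.

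Complement is a cascade of plasma proteins that tags and lyses microbes and marks debris for phagocytes. C1q, built of the A, B and C chains encoded by C1qa, C1qb and C1qc, recognises antibody and dying cells and carries the proteases C1r (C1ra) and C1s (C1s1), which cleave C4 (C4b). C3 is the component on which all routes of activation meet, C5 (Hc) starts the terminal pathway, and C7 helps to insert the terminal complex into a membrane. Most plasma complement comes from the liver, whereas C1q is known as a product of tissue macrophages, and lung epithelium and fibroblasts are known local sources of several components.

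On the GRCm38 assembly the 3 C1q genes lie within 18.7 kb of chromosome 4 on the minus strand, C1qb at chr4:136880129-136886187, C1qc at chr4:136889804-136893065 and C1qa at chr4:136895917-136898803. C1ra (chr6:124512405-124523443, plus strand) and C1s1 (chr6:124530345-124542359, minus strand) are neighbours on chromosome 6. The others are on the minus strand, Hc at chr2:34983331-35061438, C7 at chr15:4988762-5063740, C4b at chr17:34728380-34743882 and C3 at chr17:57203970-57228136. Near-identical copies were checked because reads are counted near the 3′ end. In the last 400 bases C1ra shared 44.3% and C1s1 71.9% of its bases with its paralog (C1rb or C1s2, each with 2 UMIs in all kept cells), but C4b shared 97.8% with C4a, which was not analysed here, so reads of these copies could not be told apart and C4b levels are uncertain to that extent.

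The 250 bases before the RefSeq start (GRCm38.p6) are shown for C1qb and C1qc, which were detected in the same cells, and for C3 and C7, which were low together in 1 library. Promoters were found for 7 of the 9 genes, without C1qa and C4b. Capitals mark GAGGAA, the core bound by the myeloid factor PU.1, in the C1q genes (TTCCTC is its other strand), and TTNNGNAA, a C/EBP motif, in C3 and C7.
C1qb promoter, chr4:136886201-136886450, minus strand: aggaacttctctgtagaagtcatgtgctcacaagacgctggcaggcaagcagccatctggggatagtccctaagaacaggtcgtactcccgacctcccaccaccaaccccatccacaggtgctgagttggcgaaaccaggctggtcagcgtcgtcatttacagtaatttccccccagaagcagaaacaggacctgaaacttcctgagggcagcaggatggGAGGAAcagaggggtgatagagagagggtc
C1qc promoter, chr4:136892915-136893164, minus strand: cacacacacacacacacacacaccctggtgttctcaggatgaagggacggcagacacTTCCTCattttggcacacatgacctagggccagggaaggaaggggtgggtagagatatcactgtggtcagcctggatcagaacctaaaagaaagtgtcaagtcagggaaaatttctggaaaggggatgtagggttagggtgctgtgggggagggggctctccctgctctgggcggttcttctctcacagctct
C3 promoter, chr17:57228137-57228386, minus strand: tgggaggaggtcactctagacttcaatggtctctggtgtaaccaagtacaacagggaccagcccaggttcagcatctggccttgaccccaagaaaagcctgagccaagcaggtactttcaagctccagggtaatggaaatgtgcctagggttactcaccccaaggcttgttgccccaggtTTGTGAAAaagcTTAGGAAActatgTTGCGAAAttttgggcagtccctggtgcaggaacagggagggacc
C7 promoter, chr15:5063774-5064023, minus strand: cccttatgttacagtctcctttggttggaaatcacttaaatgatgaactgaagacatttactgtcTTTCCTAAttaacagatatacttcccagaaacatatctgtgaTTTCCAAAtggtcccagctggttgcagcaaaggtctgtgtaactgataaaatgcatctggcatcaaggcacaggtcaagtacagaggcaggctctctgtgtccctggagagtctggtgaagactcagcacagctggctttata
Both strands were searched, each position was counted once, and the matches of the 2 motifs did not overlap in these windows. C1qb and C1qc held 1 GAGGAA each, 30 to 25 and 193 to 188 bases before the start, and C3, C7, C1ra, C1s1 and Hc held 0, while 23.4% of 32536 promoters of this length held at least 1. C3 held 3 TTNNGNAA matches between 70 and 38 bases before the start, and C7 held 2, at 185 to 178 and 143 to 136 bases. TTNNGNAA also occurred in 36.8% of all these promoters, including C1qc, C1ra and C1s1, so a match is only a description of the letters.

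Of 34037 barcodes, 28153 cells passed the limits on genes, UMIs and mitochondrial share, 5537 to 8377 per library with medians of 3998.5 to 4308 UMIs, and 131 barcodes occurred in more than 1 library. Each cell was given 1 of 20 types by the highest share of that type's markers with at least 3 detected, and 7.31% of cells stayed unassigned. Cell type names below stand for such marker-gated, X-like cells. No complement gene served as a marker. In the gated cells Dcn reached 5097 CPM (UMIs per 1000000 UMIs of the summed cells) in fibroblasts, against 9.40 CPM in the other gated cells, and Sftpc reached 143485 CPM in alveolar type II cells, against 183 CPM. In interstitial macrophages all 10 of their markers were higher than in the other gated cells. Markers that set the gate are high in the gated cells by construction, so such values are no independent check of the names. Types with under 20 cells in a library are named with their number of cells.

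The library labelled 18 M went against its labels and is called "the library labelled 18 M" for that reason. Xist, which is expressed from the inactive X chromosome of females, had 578 CPM there and 0.176 to 0.526 CPM in the other libraries. Y-linked RNA was also present in the library labelled 18 M. Of its 8377 cells, 2678 held Xist and no Y-linked UMI, 3331 held the reverse and 366 held both. In the libraries labelled NB, 2 M and 10 M, 2, 1 and 4 cells held Xist and no Y-linked UMI. H19, an imprinted RNA known from fetal and newborn tissue, had 0, 0, 0.286 and 534 CPM in fibroblasts of the libraries labelled NB, 2 M and 10 M and the one labelled 18 M. Col1a1 had 443, 3328, 1499 and 20120 CPM and Eln 178, 2316, 909 and 15888 CPM in the same cells, and the proliferation gene Mki67 had 10.6, 4.92, 4.61 and 45.9 CPM over whole libraries. The library labelled NB, given as 10 days old, thus had no H19 UMI in fibroblasts and the lowest Col1a1 and Eln of the 4, so that its label is in doubt as well. Whether the labels NB and 18 M were exchanged was not tested, and neither was the number of animals in the library labelled 18 M. The order of age of these libraries is that of the labels only. Results with the library labelled 18 M are therefore set beside those of 10 M against 2 M, which do not use it.

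**Figure D1:**
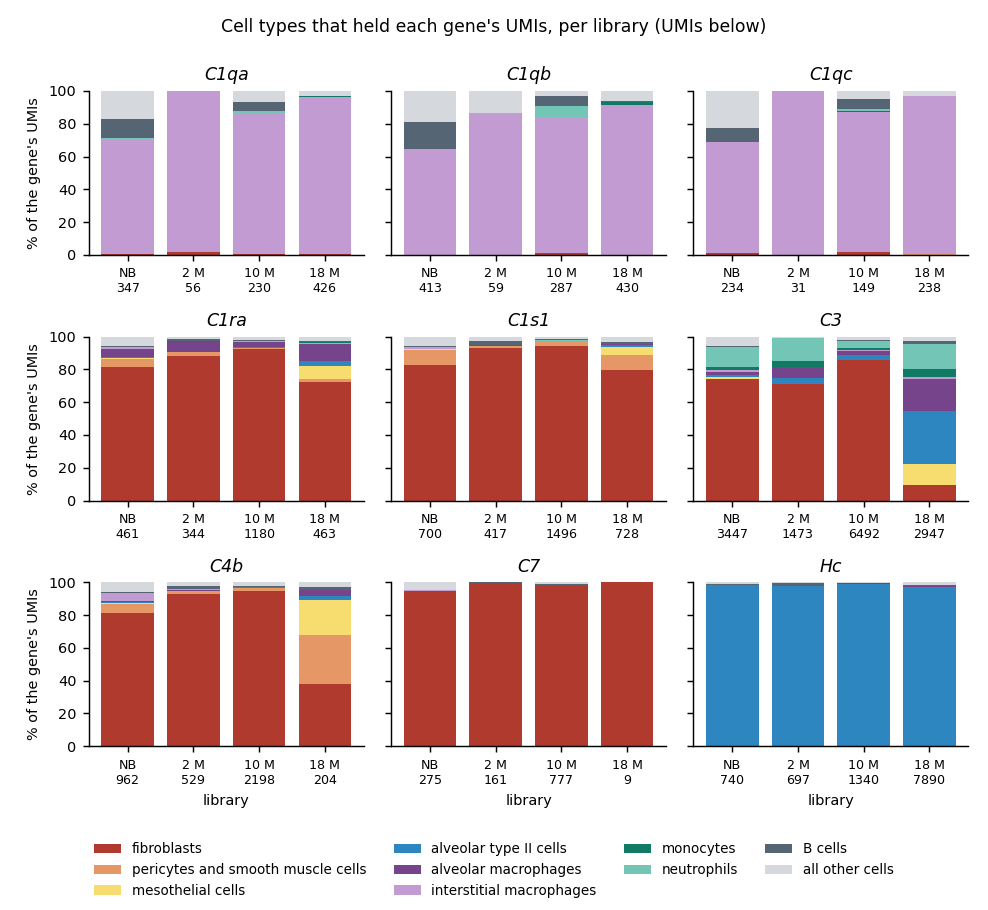
Share of each gene's UMIs (y axis, percent) held by each cell type (colours) in each library (x axis, with the gene's number of UMIs), 1 panel per gene. The C1q genes were held mainly by interstitial macrophages, Hc by alveolar type II cells, and C1ra, C1s1, C3, C4b and C7 mainly by fibroblasts, apart from C3 and C4b in the library labelled 18 M.

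The 3 C1q genes were detected mainly in interstitial macrophages, a rare population of 26, 2, 19 and 32 cells in the libraries labelled NB, 2 M and 10 M and the one labelled 18 M. These cells held 67.2% (64.2 to 70.1), 93.8% (88.6 to 97.1), 84.5% (81.6 to 87.2) and 94.4% (92.9 to 95.7) of all C1q UMIs while making up 0.408%, 0.0361%, 0.242% and 0.382% of cells. C1qa reached 1170 CPM (1028 to 1327), 3425 CPM (2580 to 4458), 1312 CPM (1136 to 1508) and 1584 CPM (1434 to 1745) in them. C1qb had 1271, 3176, 1577 and 1518 CPM, and C1qc had 763, 1931, 842 and 889 CPM. The 2 M values came from only 2 cells, with 36 and 19 UMIs of C1qa, 28 and 23 of C1qb and 22 and 9 of C1qc, and 10 M, with 19 cells, was also under the 20-cell minimum. Between the other 3 libraries the intervals of C1qa overlapped for NB and 10 M and for 10 M and the library labelled 18 M, but not for NB and the library labelled 18 M.

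Alveolar macrophages, the resident phagocytes of the air spaces, had 0 C1q UMIs among 14359918 UMIs in 1045 cells, which, with 3 counts as the limit that a count of 0 allows, leaves up to 0.209 CPM for the 3 chains summed and up to 0.287% of cells with a UMI. C1q UMIs were thus split between the 2 macrophage types far beyond counting error, although the median alveolar macrophage had 13049.5 to 17914 UMIs and the median interstitial macrophage 7244 to 8420.5 UMIs. Monocytes, which are blood-derived precursors of macrophages, held 1 C1q UMI in 51 cells of 10 M and 10 UMIs, all in 1 of 94 cells, in the library labelled 18 M. T cells, which should lack C1q, had a C1qa UMI in 0.0506%, 0%, 0.0629% and 0.261% of cells of the libraries labelled NB, 2 M and 10 M and the one labelled 18 M at medians of 5217 to 6543 UMIs.

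Within interstitial macrophages C1q was uneven. Of 79 cells, 51 held at least 10 C1q UMIs and 21 held none, and the 51 cells held 97.2% to 100% of the C1q UMIs of their type in each library. A C1qa UMI was found in 61.5% of interstitial macrophages in the library labelled NB and 71.9% in the library labelled 18 M (57.1% and 41.9% after thinning each cell to 1000 UMIs). The highest single cells of NB, 10 M and the library labelled 18 M held 103, 95 and 107 C1q UMIs.

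The 3 chains came in a similar ratio in the interstitial macrophages of the 4 libraries. Over all interstitial macrophages C1qa made 37.8% (35.8 to 39.8), C1qb 39.4% (37.5 to 41.4) and C1qc 22.8% (21.1 to 24.5) of 2401 C1q UMIs, and the intervals of each of the 4 libraries contained these shares. The C1q UMIs of unassigned NB cells split into 34.9%, 37.6% and 27.5%. Those of NB B cells split into 30.8% C1qa, 53.8% C1qb (44.9 to 62.6) and 15.4% C1qc, with the C1qb interval above that of the macrophages. Of those 130 B cell UMIs 129 were in 2 cells, 110 of them in 1 cell.

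**Figure D2:**
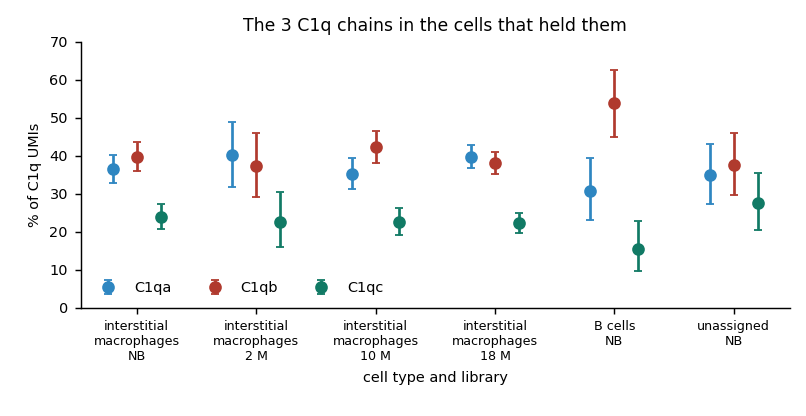
Share of C1q UMIs (y axis, percent) from C1qa, C1qb and C1qc in interstitial macrophages of each library and in NB B cells and unassigned NB cells (x axis). Points are shares and bars 95% Clopper-Pearson intervals. C1qc was the lowest of the 3 in each of the 6 groups.

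Most C1q outside the interstitial macrophage gate lay in few cells. Besides the 51 interstitial macrophages, 13 cells held at least 10 C1q UMIs, namely 5 unassigned cells, 3 B cells and 1 each of endothelial cells, monocytes, neutrophils, plasma cells and unresolved mononuclear phagocytes. Their totals ran from 533 to 21617 UMIs, and 7 of the 13 held at least 3 interstitial macrophage markers beside the markers of their own type. In 10 M the 1 neutrophil held 23 of the 24 C1q UMIs of its type, the 1 endothelial cell held all 22, and 1 B cell held 33 of 38. Doublets were not called, and their part in these 13 cells was not tested.

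C1ra and C1s1, the protease partners of C1q, were found in another compartment than C1q. Fibroblasts, 151, 109, 418 and 195 cells in the libraries labelled NB, 2 M and 10 M and the one labelled 18 M, held 81.3%, 88.4%, 92.3% and 72.4% of C1ra UMIs and 82.6%, 92.8%, 94.6% and 79.8% of C1s1 UMIs. C1ra had 332 CPM (299 to 367), 328 CPM (292 to 367), 312 CPM (293 to 331) and 205 CPM (184 to 228) in them. C1s1 had 512 CPM (471 to 555), 418 CPM (377 to 461), 405 CPM (384 to 426) and 355 CPM (327 to 385). Interstitial macrophages held only 9 C1ra and 5 C1s1 UMIs in all 4 libraries.

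The balance of the 2 proteases differed between cell types. C1ra made 41.5% (40.2 to 42.9) of C1ra and C1s1 UMIs in fibroblasts, 22.4% (17.1 to 28.3) in pericytes and smooth muscle cells and 95.6% (90.7 to 98.4) in alveolar macrophages, where 131 C1ra UMIs stood against 6 of C1s1. In alveolar macrophages C1ra had 9.05, 10.7, 10.9 and 7.69 CPM in the libraries labelled NB, 2 M and 10 M and the one labelled 18 M, in 17, 22, 32 and 45 cells, with at most 3 UMIs in a cell. The C1ra share in these cells was 91.7% to 97.4% in each library. Pericytes and smooth muscle cells had 151, 97.0 and 112 CPM of C1s1 in the libraries labelled NB, 10 M and 18 M. In 2 M they were 16 cells with 7 C1s1 UMIs.

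**Figure D3:**
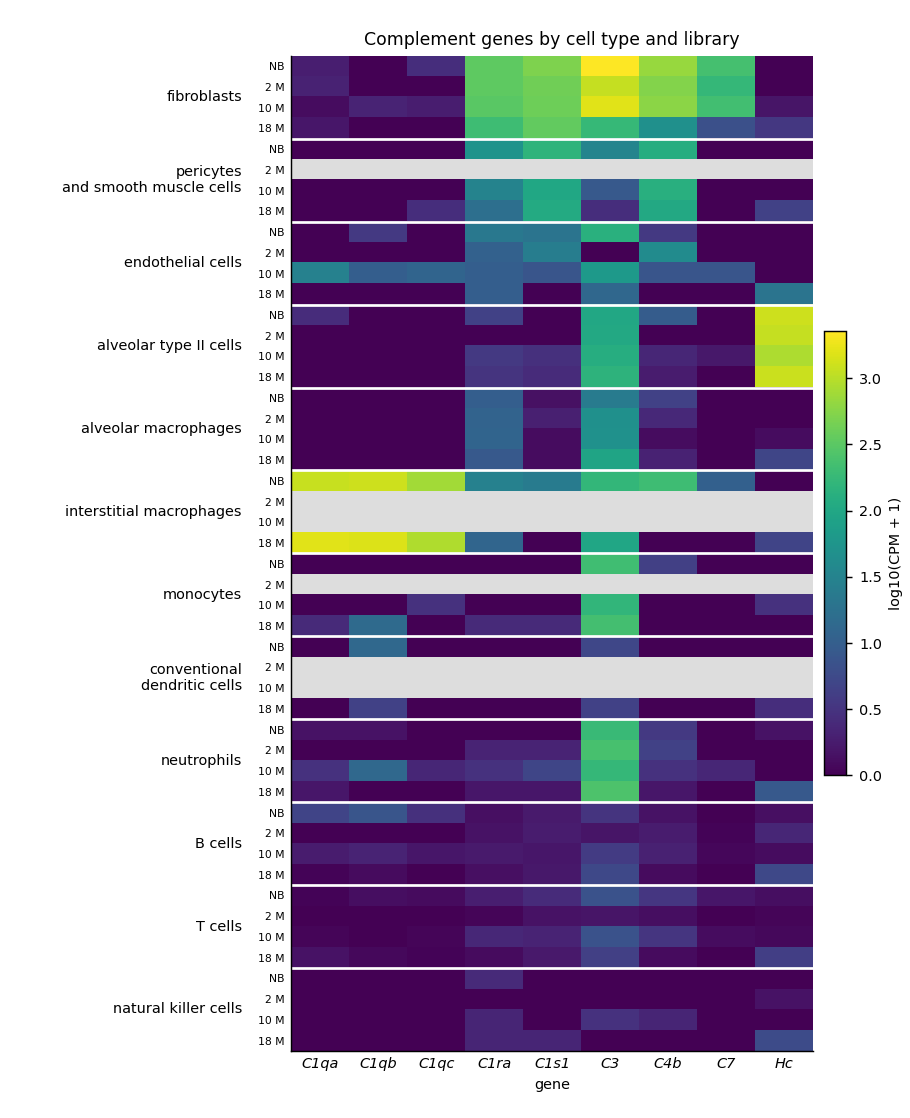
Level of each gene (columns) as log10(CPM + 1) in each cell type and library (rows, from NB at the top to 18 M at the bottom of each type). Grey rows had under 20 cells. C3 was present in fibroblasts, neutrophils, monocytes, macrophages and type II cells, and Hc was high in alveolar type II cells.

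C3, the central component, was spread over fibroblasts, neutrophils, monocytes, macrophages and alveolar type II cells. Fibroblasts had 2256 CPM (2169 to 2345), 1128 CPM (1061 to 1198), 1595 CPM (1553 to 1637) and 175 CPM (155 to 196) in the libraries labelled NB, 2 M and 10 M and the one labelled 18 M. They held 73.9% (72.4 to 75.4), 70.9% (68.6 to 73.3), 85.9% (85.0 to 86.7) and 9.70% (8.66 to 10.8) of all C3 UMIs. In the library labelled 18 M alveolar type II cells held 32.2% and mononuclear phagocytes 25.7%, against 4.14% and 9.91% in 2 M. Those 2 populations were also larger there, with 717 type II cells and 700 mononuclear phagocytes, against 42 and 147 cells in 2 M, so that shares of a library move with its mix of cells as well as with the level per cell.

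Neutrophils had 185 CPM (167 to 203), 237 CPM (205 to 271), 173 CPM (152 to 195) and 260 CPM (236 to 285) of C3 in the libraries labelled NB, 2 M and 10 M and the one labelled 18 M. Monocytes had 212, 161 and 223 CPM in the libraries labelled NB, 10 M and 18 M, and 308 CPM from 15 cells in 2 M. Alveolar macrophages had 23.7, 47.8, 48.7 and 89.4 CPM and alveolar type II cells 102, 104, 122 and 148 CPM in the libraries labelled NB, 2 M and 10 M and the one labelled 18 M. In B cells C3 had 0.549 to 4.36 CPM and in T cells 0.556 to 6.02 CPM. Of the 72 C3 UMIs in NB T cells 39 were in 1 cell, and of the 51 in NB endothelial cells 47 were in 1 cell.

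The 6 mesothelial cells of the library labelled 18 M, which line the lung surface and are marked here by Msln and related genes, held 377 C3 UMIs, or 5218 CPM (4705 to 5773), with a UMI in all 6 cells. They also had 609 CPM of C4b, 512 CPM of C1s1 and 484 CPM of C1ra. These few cells held more C3 UMIs than the 195 fibroblasts of the same library, which had 286. The 2 mesothelial cells of the library labelled NB held 27 C3 UMIs, and 0 cells of 2 M and 10 M passed this gate.

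C4b followed the fibroblast and mural cells. Fibroblasts had 691 CPM (644 to 742), 531 CPM (485 to 580), 595 CPM (569 to 621) and 47.1 CPM (37.2 to 58.9) in the libraries labelled NB, 2 M and 10 M and the one labelled 18 M and held 81.2%, 93.0%, 94.6% and 37.7% of its UMIs. Pericytes and smooth muscle cells had 122 CPM (91.3 to 159), 128 CPM (94.7 to 168) and 105 CPM (80.6 to 135) in the libraries labelled NB, 10 M and 18 M, with overlapping intervals, and 67.9 CPM from 16 cells in 2 M. In the library labelled 18 M they held 29.9% of C4b UMIs and exceeded the fibroblasts of that library in CPM. NB interstitial macrophages had 201 CPM, of which 36 of 42 UMIs were in 1 cell.

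C7 was the gene most restricted to fibroblasts, which held 94.9%, 99.4%, 98.3% and 100% of 275, 161, 777 and 9 UMIs in the libraries labelled NB, 2 M and 10 M and the one labelled 18 M. Its level in them was 231 CPM (204 to 261), 173 CPM (147 to 202), 219 CPM (203 to 235) and 5.50 CPM (2.52 to 10.4). The 3 libraries other than the one labelled 18 M lay near each other, and the library labelled 18 M lay far below all of them.

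Hc was restricted to alveolar type II cells, the surfactant-making cells of the alveolus, which held 98.4%, 97.6%, 99.1% and 97.1% of its UMIs in the libraries labelled NB, 2 M and 10 M and the one labelled 18 M. The level was 1234 CPM (1146 to 1327), 1161 CPM (1075 to 1252), 865 CPM (819 to 912) and 1198 CPM (1171 to 1225). An Hc UMI was found in 73.9%, 90.5%, 86.0% and 74.3% of type II cells, against 0.202%, 0.0762%, 0.126% and 1.30% of T cells. After thinning to 1000 UMIs these were 57.8%, 57.5%, 44.7% and 54.5% of type II cells. In the library labelled 18 M, where the type II cells were most numerous, Hc had 49.5 CPM in basophils and mast cells and 18.4 CPM in endothelial cells, each from 1 cell (15 and 6 UMIs). Unassigned cells of that library had 27.4 CPM, neutrophils 7.51 CPM, B cells 4.36 CPM and alveolar macrophages 4.00 CPM.

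In fibroblasts of the library labelled 18 M against 2 M, the comparison meant for ageing, C3, C4b and C7 were far lower and the C1 proteases were much closer. C3 had 175 CPM in the library labelled 18 M, against 1128 CPM in 2 M, a ratio of 0.155 (0.136 to 0.177). C4b stood at 0.0887 (0.0688 to 0.113) of its 2 M level and C7 at 0.0319 (0.0143 to 0.0620), from 9 UMIs in the library labelled 18 M and 160 in 2 M. C1ra stood at 0.624 (0.533 to 0.732) and C1s1 at 0.851 (0.747 to 0.970), both below 1 beyond counting error but within 2-fold.

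By the 2-fold limit 3 of the 5 genes with at least 10 UMIs were lower and 0 were higher, while 4.87% of the 7459 genes with at least 30 UMIs were lower and 6.98% higher. The other 4 genes, C1qa, C1qb, C1qc and Hc, had too few UMIs in fibroblasts to be compared. The median log2 ratio of the 5 was −2.69, against −0.04 over all genes. With clusters in place of the marker gate it was −1.47, with the count of 3 lower genes unchanged. The C3 share of fibroblasts in the library labelled 18 M was then 22.5% in place of 9.70%. No cluster was named mesothelial, and the 6 gated mesothelial cells of that library held 377 C3 UMIs, against 286 in its gated fibroblasts. The part of these cells in both shifts was not tested. Against 10 M, the ratios of the library labelled 18 M were 0.1097 for C3, 0.0792 for C4b, 0.0252 for C7, 0.658 for C1ra and 0.878 for C1s1, so that the same 3 genes lay below 0.5 with either adult library. Both comparisons share the library labelled 18 M.

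**Figure D4:**
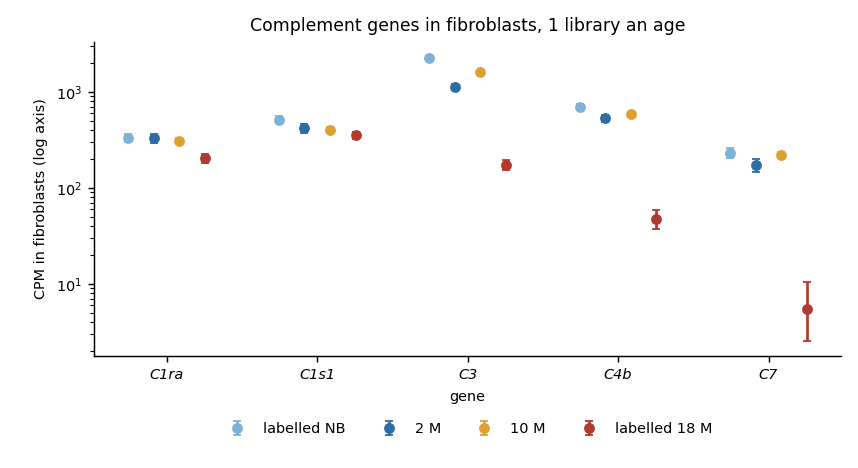
Level of the 5 genes that fibroblasts expressed, in CPM on a log axis, in each library. Points are sums over the cells of a library and bars 95% Poisson intervals. C3, C4b and C7 of the library labelled 18 M (175, 47.1 and 5.50 CPM) lay below the other 3 libraries, and C1s1 differed least.

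Fewer fibroblasts held a UMI of these genes in the library labelled 18 M. C3 was found in 82.1%, 59.6%, 82.1% and 20% of fibroblasts of the libraries labelled NB, 2 M and 10 M and the one labelled 18 M at medians of 7071, 7121, 7864.5 and 8068 UMIs, and in 0.859%, 0.305%, 1.19% and 1.30% of T cells. After thinning to 1000 UMIs, which left 142, 107, 383 and 155 fibroblasts, the shares were 58.5%, 41.1%, 58.5% and 9.03%. For C4b the thinned shares were 39.4%, 30.8%, 37.1% and 1.94%, and for C1s1 40.8%, 34.6%, 31.1% and 24.5%. C3 of the library labelled 18 M was concentrated, since the 20 highest of 195 fibroblasts held 91.3% of it, against 53.0% in the 11 highest of 109 in 2 M, and the highest single cell held 53 UMIs, against 112 UMIs in 2 M.

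C3, C4b and C7 were lower in both fibroblast subsets. Adventitial fibroblasts, which surround vessels and airways (121 cells in the library labelled 18 M and 67 in 2 M), had ratios of 0.135 (0.116 to 0.156) for C3, 0.0512 (0.0358 to 0.0715) for C4b and 0.0305 (0.0129 to 0.0622) for C7. Alveolar fibroblasts (20 and 24 cells) had 0.284 (0.202 to 0.391) for C3, 0.339 (0.218 to 0.513) for C4b and 0.0360 (0.000889 to 0.213) for C7, the last from 1 UMI in the library labelled 18 M and 38 in 2 M. The C4b intervals of the 2 subsets did not overlap, and neither did those of C3. The fibroblasts in neither subset (54 and 18 cells) had a C3 ratio of 0.0491 (0.00960 to 0.157). C1s1 had a ratio of 1.08 (0.767 to 1.503) in alveolar and 0.815 (0.701 to 0.949) in adventitial fibroblasts. In the fibroblasts in neither subset both C1 proteases were lower by more than 2-fold. There C1s1 had 127 CPM in the library labelled 18 M, against 338 CPM in 2 M, from 23 and 31 UMIs. C1ra had 44.2 CPM, against 251 CPM, from 8 and 23 UMIs.

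The ratios were also below 0.5 in both sets of cells of the library labelled 18 M that sex-linked RNA separated. Fibroblasts with Y-linked and no Xist UMIs (74 cells) stood at 0.238 (0.203 to 0.277) of the 2 M level for C3, 0.0879 for C4b and 0.0540 for C7. Those with Xist and no Y-linked UMIs (57 cells) stood at 0.0635 (0.0462 to 0.0853) for C3, 0.0938 for C4b and 0.0180 for C7. The C3 intervals of the 2 sets did not overlap, while C1s1 was nearly equal in them, at 0.865 and 0.857.

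**Figure D5:**
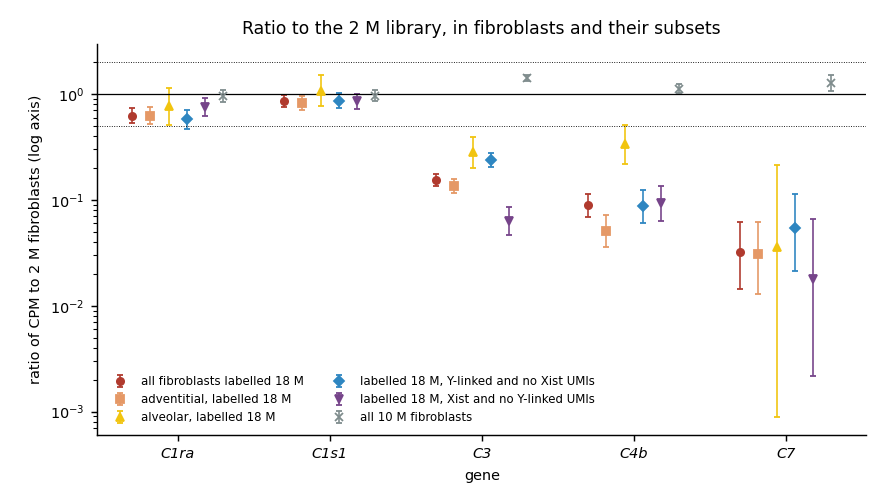
Ratio of CPM to the 2 M library (y axis, log scale) for 5 genes in fibroblasts of the library labelled 18 M, in 2 subsets, in its 2 sets of cells by sex-linked RNA, and in 10 M fibroblasts. Bars are 95% intervals of counting error, and dotted lines mark 0.5 and 2. All ratios of C3, C4b and C7 in the library labelled 18 M lie below 0.5 and those of 10 M between 1.12 and 1.41.

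Several other measures moved with that difference. In fibroblast sums of the library labelled 18 M and of 2 M, Postn had 1097 and 0 CPM, Dcn 4628 and 6925 CPM, Hbb-bs 6470 and 1506 CPM and Sftpc 433 and 59.4 CPM. All 12 alveolar type II markers were higher there than in 2 M, with summed levels of 563 and 105 CPM (106 and 99.8 CPM in the libraries labelled NB and 10 M), and 7 of 10 alveolar macrophage markers were higher, with 153 and 29.1 CPM. Of 8 mesothelial markers 5, Msln and Upk3b among them, were at 0 in the fibroblasts of every library. The 102 fibroblasts of the library labelled 18 M with no Postn and no Cthrc1 UMI had 135 CPM of C3, 83.6 CPM of C4b and 2.04 CPM of C7 at a median of 1169 UMIs, and the 93 with such a UMI had 192, 31.5 and 6.99 CPM at a median of 11775 UMIs, both far below the 2 M levels. At such different depths, a cell with no such UMI is not shown to lack Postn or Cthrc1. The part of Postn and of the other measures in the result was not tested.

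Between 10 M and 2 M, which leaves out the library labelled 18 M, the 5 genes summed over all fibroblasts lay within 2-fold. The ratio of 10 M to 2 M was 1.41 (1.32 to 1.51) for C3, 1.27 (1.07 to 1.51) for C7, 1.12 (1.01 to 1.24) for C4b, 0.969 (0.865 to 1.09) for C1s1 and 0.949 (0.835 to 1.08) for C1ra. None of the 5 passed 2-fold, where 4.69% of 8883 genes were higher and 1.56% lower. Their median log2 ratio was 0.16, against −0.01 over all genes, and it was −0.081 in adventitial fibroblasts alone. In alveolar fibroblasts C7 had 317 CPM in 10 M, against 142 CPM in 2 M, a ratio of 2.23 (1.60 to 3.1995), whereas in adventitial fibroblasts it was 0.852 (0.690 to 1.06).

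Between 2 M and the library labelled NB none of the 5 genes passed 2-fold in all fibroblasts. C3 was at 1128 CPM in 2 M, against 2256 CPM in the library labelled NB. Its ratio of 0.5001 (0.465 to 0.538) lay just inside the 2-fold limit. Within both subsets C3 was past that limit. Alveolar fibroblasts had 830 CPM in 2 M, against 1715 CPM in the library labelled NB, and adventitial fibroblasts had 1397 CPM, against 3260 CPM. The count of lower genes was 1 under 8 of 13 alternatives. In the alternative with at least 1 UMI that gene was C1qc, with 2 UMIs in the library labelled NB and 0 in 2 M, and not C3. The ratios of C7, C4b and C1s1 were 0.747 (0.610 to 0.914), 0.768 (0.685 to 0.861) and 0.816 (0.716 to 0.9302), and that of C1ra was 0.988 (0.847 to 1.15). Of 6779 genes 4.09% were lower and 2.98% higher by 2-fold, and the median log2 ratio of the 5 was −0.38, against 0.02 over all genes. C4b had a ratio of 0.562 (0.455 to 0.689) in alveolar fibroblasts and of 1.03 (0.874 to 1.22) in adventitial fibroblasts, where C7 had 208 CPM in 2 M, against 187 CPM in the library labelled NB.

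C1q summed over all mononuclear phagocytes was lowest in 2 M, which had the fewest interstitial macrophages. It had 134 CPM in the library labelled 18 M, against 60.9 CPM in 2 M, a ratio of 2.19 (1.84 to 2.63), with 32 interstitial macrophages of 700 cells and 2 of 147 cells. For 10 M against 2 M the ratio was 2.12 (1.77 to 2.57), and for 2 M against the library labelled NB 0.303 (0.252 to 0.363). When each cell was given the same weight, the log2 ratio of the library labelled 18 M to 2 M was 0.30 rather than 1.13. In 2 M those 2 cells held 137 of 146 C1q UMIs, each of the 3 ratios rests on them, and no 2 M level per interstitial macrophage could be set.

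Among other cell types with C3, the ratio of the library labelled 18 M to 2 M was below 2 in the 3 with the most C3 UMIs. Alveolar macrophages had a ratio of 1.87 (1.51 to 2.34), with 1.90 and 1.89 in the cells with Y-linked RNA only and with Xist only. Alveolar type II cells had 1.42 (1.10 to 1.87) and neutrophils 1.10 (0.928 to 1.30). When the cells were clustered, neutrophils of the 2 libraries fell mostly into different clusters. A cluster held 471 cells of the library labelled 18 M and 0 of 2 M, and another 9 and 222. B cells split likewise, with 2193 and 273 cells in a cluster and 37 and 1721 in another. For T cells such counts were 1024 and 18, and 36 and 605. Some clusters held cells of both libraries, such as a B cell cluster with 106 and 94. In the alveolar macrophages 11 of 12 alveolar type II markers were also higher, with summed levels of 389 CPM in the library labelled 18 M and 182 CPM in 2 M, and 8 of 12 fibroblast markers, with 38.8 and 4.88 CPM. Their part in the C3 ratio was not tested. T cells and B cells, at 3.34 and 4.36 CPM in the library labelled 18 M, had ratios of 6.00 (2.36 to 19.5) and 7.95 (3.40 to 22.7), from 5 and 6 UMIs in 2 M. For 10 M against 2 M the C3 ratios were 1.02 (0.790 to 1.32) in alveolar macrophages, 1.18 (0.876 to 1.60) in type II cells and 0.729 (0.605 to 0.880) in neutrophils.

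Hc in type II cells had a ratio of 1.03 (0.954 to 1.12) for the library labelled 18 M against 2 M. The ratio was 0.745 (0.678 to 0.818) for 10 M against 2 M and 0.941 (0.846 to 1.05) for 2 M against the library labelled NB. The 10 M library was thus the lowest of the 4, by less than 2-fold.

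The other complement genes of a list of 50 symbols were placed in the same way. Of the terminal pathway, C6 had 95.4% of its 1324 UMIs in alveolar type II cells, at 161, 133, 111 and 144 CPM in the libraries labelled NB, 2 M and 10 M and the one labelled 18 M, the same cell type as Hc. C8a and C8b had 0 UMIs, C9 had 2 and C8g 32. Among regulators, fibroblasts held 94.7% of Serping1, the C1 inhibitor. They also held 73.4% of C2, the protease that pairs with C4, and 73.4% of Colec12, a scavenger collectin. Alveolar macrophages held the largest share of the alternative pathway genes Cfb (53.2%) and Cfp (30.9%). Receptors were on immune cells, C5ar1 with 45.2% of its UMIs in neutrophils, Cr2 with 92.6% in B cells and Itgax with 79.4% in alveolar macrophages, though Itgax is itself a marker of the conventional dendritic cell gate.

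In fibroblasts of the library labelled 18 M against 2 M, 14 of the 50 listed genes had at least 30 UMIs, of which 6 were lower and 1 higher by 2-fold, beside 4.87% lower and 6.98% higher of all genes. Beside C3, C4b and C7 the lower ones included Cfb at 0.477 and Cd59a at 0.488, and the higher one was Clu at 2.08 (1.08 to 4.32). Serping1 stood at 0.518 (0.484 to 0.553). For 10 M against 2 M 3 of 15 were higher and 0 lower, beside 4.69% and 1.56% of all genes. For 2 M against the library labelled NB 0 of 14 were higher and 2 lower, beside 2.98% and 4.09% of all genes.

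Across 52 sums of a cell type in a library with at least 20 cells, the genes fell into patterns that followed their cell types. The measure was Pearson's r of log2(CPM + 10) over 12367 genes with at least 200 UMIs. The sums share 4 libraries, and interstitial macrophages entered from only 2 of them. Most like C1qa were C1qc (0.99), C1qb (0.98) and Ms4a7 (0.95), the last a marker of the interstitial macrophage gate. C1ra went with C1qtnf7, Bnc2 and Serping1 (each 0.95) and had an r of 0.94 with C1s1. C4b was nearest to C1s1 (0.93), Rarres2 (0.92) and Kcne4 (0.91), and C7 to Faim2 (0.98), Ms4a4d and Abca8b (each 0.96). Hc went with S100g, Sfta2 and Atp6v1c2 (each 0.99). C3 had no close partner, its highest values being 0.78 for Mgst1, 0.76 for Igfbp6 and 0.75 for Rhou.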

How the data were processed

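The authors deposited unnormalized counts of UMIs for each gene in each barcode, 1 matrix per library, made with Cell Ranger 3.0.2 per the labels (the file header gives software version 3.1.0) on mm10, and their processing notes also name Seurat 2.0. Total UMIs of the kept cells were 28853314 to 48189430 per library. The libraries were grouped by their age labels. Kept cells had more than 200 but fewer than 5000 detected genes, no more than 25000 UMIs, and a mitochondrial share below 8%, which left more cells than the study's methods state. No doublet caller was run. Cell types were rebuilt from marker lists (195 of 199 markers were in the gene table), so names may differ from the study's. A cell took the type with the highest share of its markers detected, at least 3, and ties stayed unassigned. UMIs were summed per type and library. A gene was called at a ratio of at least 2 or at most 0.5 with at least 30 UMIs over both libraries (10 for the 9 genes), and 0.5 UMIs were added for medians of log2 ratios. Thinned shares use 1000 UMIs per cell. With 1 library per age no model was fitted. Fibroblast subsets needed at least 2 markers of their own.

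The genes and lists were chosen with earlier results of these data known. The text names the 9 genes where they have at least 10 UMIs in a library, the most abundant others of a complement list of 50 symbols, and the 3 genes most like each of 6 of them. Alternatives varied the cell limits, the gate, clustering (Leiden, resolution 1), scaling, the UMI minimum and, by sex-linked RNA, the cells of the library labelled 18 M. Subsets, cells without Postn and Cthrc1 and other libraries in place of 2 M were added after seeing the data. The calculations were tested on simulated data. Scripts ran in Python 3.11.15 with pandas 2.3.3 and numpy 2.4.6, intervals came from scipy 1.17.1, clusters from leidenalg 0.10.2, igraph 0.11.9 and scikit-learn 1.9.0, sequence comparisons from Biopython 1.88 and plots from matplotlib 3.10.9. Gene coordinates come from a GRCm38 annotation and promoters from RefSeq GRCm38.p6. Some listed genes are counted but not reported by name here.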

Additional observations from a re-analysis of the deposited data

Results flagged for a closer look

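C3 and C4b moved in opposite directions in different cell types under the same comparison. With 1 library per age, each difference between cell types was not tested against replicates, and the intervals cover counting error only. For the library labelled 18 M against 2 M, C3 had a ratio of 0.155 in fibroblasts, against 1.42 in alveolar type II cells and 1.87 in alveolar macrophages. For 10 M against 2 M, C3 had a ratio of 1.41 in fibroblasts and 0.729 in neutrophils, and in endothelial cells 29 UMIs in 10 M stood against 0 in 2 M, which is at least 4.23-fold higher if 3 UMIs are taken as the 2 M limit, with a 95% lower bound of 3.23. Those 29 UMIs lay in 6 of 65 endothelial cells, with 13 of them in 1 cell. C4b in the same comparison had a ratio of 1.12 in fibroblasts and 0.164 (0.0281 to 0.684) in endothelial cells, the last from 3 and 8 UMIs. For 2 M against the library labelled NB, C3 had a ratio of 0.5001 in fibroblasts and, with 3 UMIs taken as the 2 M limit, at most 0.115 in endothelial cells (95% upper bound 0.146, from 0 UMIs in 2 M and 51 in NB of which 47 were in 1 cell), against 2.02 in alveolar macrophages and 1.28 in neutrophils.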

How the results depend on the processing

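No paired analysis was possible because each age has 1 library, and for the same reason no replicate could be left out. Each main value was recomputed under several alternatives and counted once for each. Of these recomputed values 196 kept their size, 64 moved and 1 turned its direction, and the cause was not tested. They are not separate results. The count of 3 genes lower in fibroblasts, the library labelled 18 M against 2 M, held under all alternatives run. C1q shares in mononuclear phagocytes moved to 72.3% (at least 2 markers, and also with clusters), 60.7% (at least 4 markers) and 57.9% (second type at most 0.5 of the first) in NB, to 57.4% (second type) and 79.7% (clusters) in 10 M, and to 81.7% (no upper limits on cells), 95.2% (4 markers), 94.6% (second type) and 96.3% (clusters) in the library labelled 18 M. The share of C1ra, C1s1, C4b and C7 in fibroblasts moved to 61.6% (second type) and 86.1% (clusters) in NB, 85.9% (no upper limits) and 83.3% (second type) in 2 M, 93.1% and 81.9% under those settings in 10 M, and 56.8%, 56.1%, 80.3% (clusters), 68.3% (Y-linked RNA only) and 78.4% (Xist only) in the library labelled 18 M. The C3 share in fibroblasts moved to 55.2% (second type) and 76.8% (clusters) in NB, 68.4% (no upper limits) and 58.3% (second type) in 2 M, 76.2% (second type) in 10 M, and 7.45% (no upper limits), 8.52% (second type), 22.5% (clusters), 13.8% (Y-linked only) and 5.34% (Xist only) in the library labelled 18 M.

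The median log2 ratio of the library labelled 18 M to 2 M in fibroblasts became −2.46 (no upper limits), −2.29 (second type), −1.47 (clusters), −3.16 (mean over cells), −2.07 (Y-linked only), −3.39 (Xist only), −0.82 (at least 1 UMI, with 1 gene higher) and, as settings chosen after seeing the data, −1.54 (alveolar), −2.89 (adventitial), −3.19 (10 M in place of 2 M) and −3.69 (NB in its place). For 10 M against 2 M it became 0.34 (at least 1 UMI, with 3 genes higher and 1 lower), 0.35 (alveolar, with 1 higher) and −0.081 (adventitial, the turned direction). For 2 M against NB it became −0.17 (mean over cells), −0.83 (alveolar) and −0.18 (adventitial), and the count of lower genes became 1 without upper limits, at a 10% mitochondrial limit, under the second-type rule, with haemoglobin, mitochondrial, ribosomal and surfactant genes left out of totals, with median-of-ratios scaling, at 1 UMI and in either subset. The log2 ratio of summed C1q became 0.30 (mean over cells) and 1.47 (Xist only) for the library labelled 18 M against 2 M, 1.41 (no upper limits) and 0.62 (second type) for 10 M against 2 M, and −2.14 (no upper limits) for 2 M against NB. With genes of 1 UMI or more, genes past 2-fold numbered 3230 higher and 1951 lower (main 521 and 363), 3333 and 1495 (417 and 139), and 1887 and 2634 (202 and 277) in the same 3 comparisons.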
